A study of Mus musculus with 19 samples.

Results

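The genes described are 34 that encode the enzymes and carriers of mitochondrial and peroxisomal fatty acid oxidation, among them 2 enzymes of ketone body metabolism. They were taken by gene symbol from a list of pathway genes that was drawn up with earlier results of these data known, with no threshold on a measured value, and all 34 were found among the 55421 genes of the count table. By role, 18 act in mitochondria, 12 in peroxisomes, 2 (Acad11 and Eci2) have been reported in both organelles, and 2 (Acat1 and Bdh1) belong to ketone body metabolism.

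RNA was sequenced from livers of adult male C57BL/6 mice in which a transgene for a joined pair of the transcription factors c-Jun and Fra2, an AP-1 dimer, was switched on by withdrawing doxycycline at 3 weeks of age. The groups were 3 mutant livers at 2 months after induction with 6 control livers of the same age, and, at 9 months, 4 macroscopic tumors and 3 macroscopically tumor-free areas (periT) from 3 mutants with 3 control livers. Controls were littermates that lost doxycycline at the same age. The labels used here do not say which promoter drives the transgene. The 2 ages were sequenced in separate runs, so age and run cannot be told apart, whereas each mutant group was set against controls of its own run.

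Each library of a group came from a separate animal by its label, except that mutant 1 at 9 months gave 2 tumors, which were summed for testing, and that tumors and periT came from the same 3 mutants. Total counts were 15676749 to 18826201 in 2-month mutants and 14294611 to 17448730 in their controls, and 19498755 to 21587928 in tumors, 18977477 to 22062341 in periT and 19869241 to 20879281 in 9-month controls. Levels of single genes and summed lists are given in CPM. These are counts scaled to library size after its adjustment by TMM factors over all 19 libraries, not to library size alone. Fosl2, which encodes Fra2, lay at 640 to 887 CPM in 2-month mutants, against 8.38 to 19.2 CPM in controls. At 9 months it lay at 405 to 759 CPM in tumors and 788 to 937 CPM in periT, against 9.36 to 19.9 CPM in controls. Jun was at 335 to 635 CPM in tumors and 438 to 786 CPM in periT, against 387, 40.5 and 22.9 CPM in the 3 controls. Control 1, the high library, also had the highest summed level of immediate early genes. By the edgeR test used below, Jun and Fosl2 were both called higher in 2-month mutants. In tumors and periT Fosl2 was called higher and Jun was not called. None of the 13 hepatocyte markers was at 0 throughout a group, and their summed levels are given below.

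Fatty acids are joined to coenzyme A, carried across the inner mitochondrial membrane as carnitine esters, and then shortened in rounds of dehydrogenation, hydration, a second dehydrogenation and thiolysis. Peroxisomes run a parallel spiral for very long, branched and dicarboxylic chains, in which the first step is an oxidase that makes hydrogen peroxide, and pass shortened chains on to mitochondria. In the fasted liver much of the resulting acetyl-CoA is turned into ketone bodies, and many genes of all 3 routes are known targets of the nuclear receptor PPARα.

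Levels of the 34 genes can be compared with each other only per length, in TPM, a gene's share of a library after division by exon length. That length counts all annotated exons of a gene and can exceed that of its main transcript, so the order of the genes depends on this choice. The mitochondrial thiolase Acaa2 was the most abundant in 2-month controls, with a median of 1530 TPM and a range of 1420 to 1600 TPM. Scp2, whose long product is a peroxisomal thiolase for branched chains, came next at 1260 TPM with a range of 1210 to 1430 TPM, which overlapped that of Acaa2. The peroxisomal thiolase gene Acaa1b followed, with a median of 917 TPM. In 2-month mutants Acaa2 (1120 TPM) and Scp2 (1030 TPM) still led, while Acaa1b stood at rank 20 with 98.2 TPM. In 9-month controls Acaa1b led with 2150 TPM and a range of 1940 to 3130 TPM, ahead of Acaa2 at 1690 TPM. Its rank was 19 in tumors, with 102 TPM, and 9 in periT, with 198 TPM.

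At 2 months after induction the mutant livers had less mRNA of nearly all of the 34 listed genes. Of the 34 genes, 32 were lower in mutants and 0 were higher (edgeR quasi-likelihood test, Benjamini-Hochberg adjusted p under 0.05 over all genes tested); at an unadjusted p under 0.05 the counts were also 32 and 0. Among all 13773 genes tested, 20.4% were lower and 22.3% higher. The median log2 change of the 34 genes was -0.90, a level 1.87-fold lower, against a median of 0.0105 over all genes. In 31 of the 34 genes every mutant library lay below every control library, as in 19.1% of all 13773 genes tested. The 2 genes that did not pass were Acox2, with a log2 change of 0.03, and Hsd17b4, with -0.16, both enzymes of the peroxisomal spiral.

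At 9 months the periT areas again had 32 genes lower and 0 higher than controls, where 16.8% of the 14352 genes tested were lower and 18.1% higher. The median log2 change of the 34 was -1.34, or 2.53-fold lower, against -0.00878 over all genes, and 24 of them were at least 2-fold lower. Tumors had 31 lower and 0 higher than the same controls, against 11.3% lower and 13.8% higher of 14332 genes. Their median log2 change was -1.59, or 3.01-fold lower, against 0.0149 over all genes. At an unadjusted p under 0.05, 33 genes were lower and 0 higher in each of tumors and periT, and DESeq2 and limma voom also called 0 higher there and at 2 months. As periT and tumors share their controls and their animals, their values are given side by side and not as separate evidence. In all 3 comparisons with controls, 29 of the 34 genes were lower, against 8.36% of the 13462 genes tested in all 3, the others being Acads, Acadvl, Acox2, Crot and Hsd17b4.

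**Figure D1:**
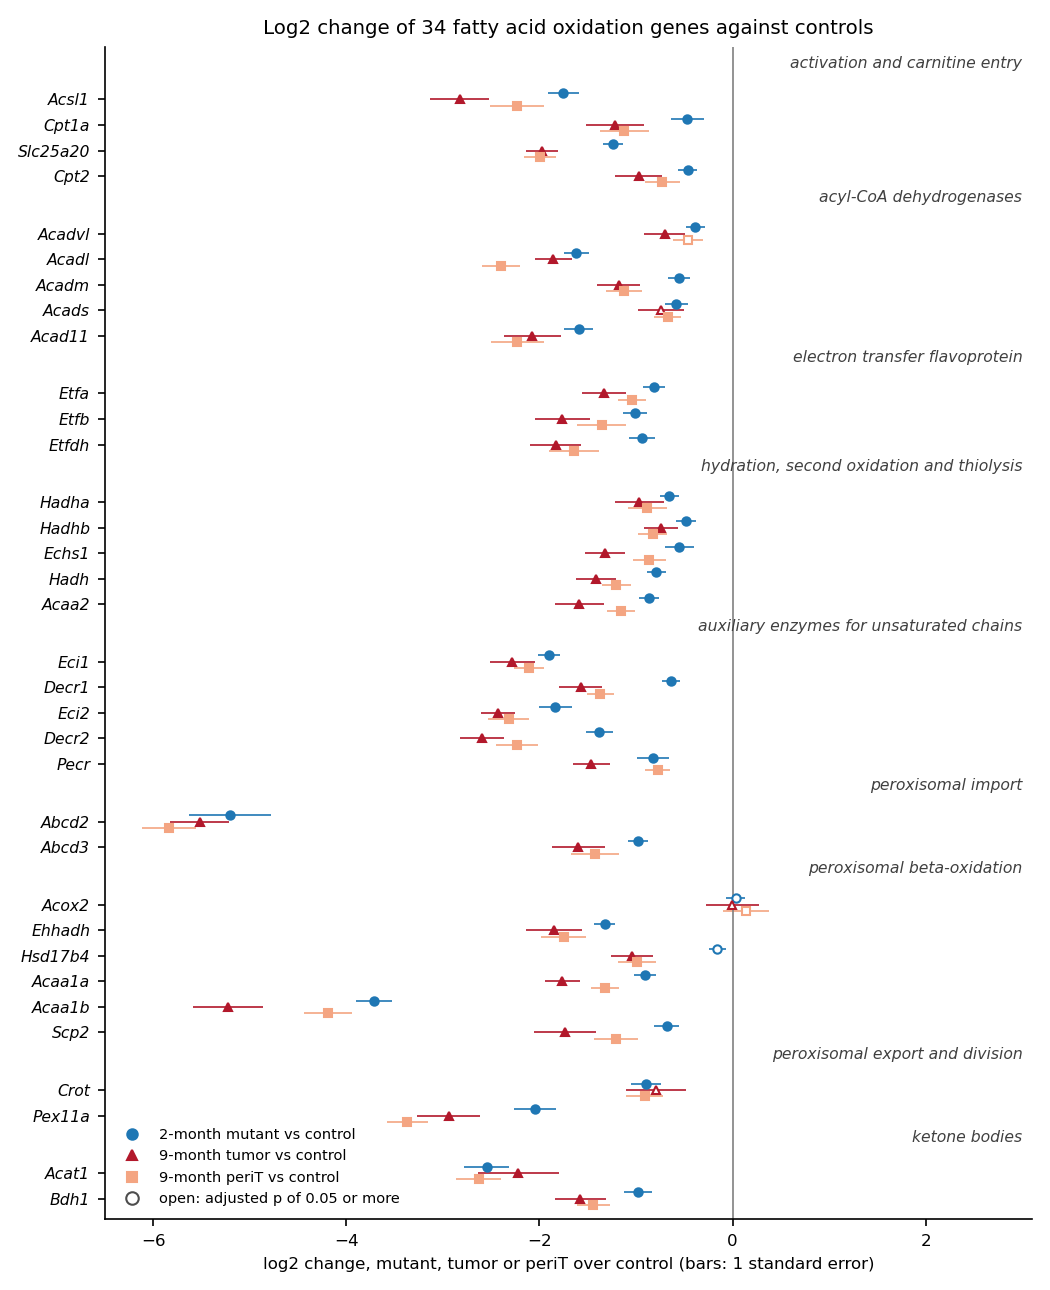
Log2 change of each of the 34 genes over controls of the same age, grouped by metabolic step, with bars of 1 SE. Blue circles are 2-month mutants, red triangles tumors and orange squares periT; filled symbols had an adjusted p under 0.05. Nearly all symbols lie left of 0, with Abcd2 and Acaa1b farthest left and Acox2 at 0.

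Counted by share of all reads assigned to genes, the 34 genes took 0.76 to 0.821% in 2-month mutants, against 1.25 to 1.38% in controls. At 9 months they took 0.6 to 0.72% in tumors and 0.643 to 0.83% in periT, against 1.46 to 1.59% in controls. The share of transcripts of the mitochondrial genome was 4.29 to 5.37% in 2-month mutants and 4.77 to 6.31% in controls, and 3.09 to 5.07% in tumors and 3.54 to 4.84% in periT, with 4.78 to 5.66% in controls. The groups thus overlapped for the mitochondrial genome and did not overlap for the 34 nuclear genes. At 9 months the overlap rested on tumor 3 (5.07%) and periT 1 (4.84%), and all other tumor and periT libraries lay below every control.

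In whole tissue, fewer hepatocytes and less RNA per hepatocyte cannot be told apart, so marker levels are given beside these counts. The 13 hepatocyte markers summed to 58300 to 78100 CPM in 2-month mutants, against 143000 to 172000 CPM in controls, and at 9 months to 62200 to 89000 CPM in tumors and 64000 to 65900 CPM in periT, against 141000 to 146000 CPM. By count, 7, 4 and 4 of the 13 were lower in 2-month mutants, tumors and periT, 1 was higher in periT, and the hepatocyte regulator Hnf4a had log2 changes of 0.17, 0.07 and 0.32 that did not pass. Macrophage markers summed to 717 to 1180 CPM in 2-month mutants, against 389 to 744 CPM in controls, with 7 of 14 higher. At 9 months they summed to 496 to 1300 CPM in tumors and 845 to 916 CPM in periT, against 326 to 427 CPM, with 8 and 10 of 14 higher. Stellate and fibroblast markers summed to 485 to 849 CPM in 2-month mutants, against 258 to 432 CPM, and to 534 to 987 CPM in tumors and 522 to 795 CPM in periT, against 278 to 426 CPM. Of those 10 markers 6, 5 and 5 were higher in 2-month mutants, tumors and periT. Bile duct markers summed to 152 to 603 CPM in 2-month mutants, against 75.6 to 134 CPM, and to 93.1 to 3090 CPM in tumors and 93.2 to 242 CPM in periT, against 75.8 to 142 CPM. Most of these bile duct sums was Spp1, which was at 522 CPM in 2-month mutant 3 and at 2357 and 2998 CPM in the 2 tumors of mutant 1, while Krt19 and Krt7 were below 5 CPM in all libraries. The part of these shifts in the results was not tested.

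Among the genes that bring fatty acids into mitochondria, Acsl1 and Slc25a20 changed most. Acsl1 encodes the main acyl-CoA synthetase of liver. It was at 423, 319 and 279 CPM in the 3 mutants at 2 months, against 975 to 1303 CPM with a median of 1161 CPM in controls. At 9 months it was at 205, 228, 144 and 202 CPM in tumors and 375, 268 and 197 CPM in periT, against 1627, 1003 and 1313 CPM in controls. No mutant library reached the lowest control at either age. The log2 changes were -1.75 (SE 0.158, adjusted p = 6.86e-06) at 2 months, -2.83 (SE 0.301, adjusted p = 0.00152) in tumors and -2.24 (SE 0.278, adjusted p = 0.000545) in periT.

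Slc25a20 encodes the carrier that exchanges acylcarnitine for carnitine across the inner membrane. Its level was 59.1, 50.4 and 47.0 CPM in 2-month mutants, against 110.2 to 136 CPM with a median of 124 CPM in controls. Tumors had 43.9, 45.5, 48.3 and 51.6 CPM and periT had 55.0, 48.2 and 37.5 CPM, against 181, 184 and 193 CPM in 9-month controls. The groups were apart by more than the range within either at both ages, with log2 changes of -1.24 (SE 0.106, adjusted p = 4.69e-06), -1.97 (SE 0.166, adjusted p = 0.000734) in tumors and -1.99 (SE 0.168, adjusted p = 8.22e-05) in periT.

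The 2 carnitine palmitoyltransferases moved less. Cpt1a, which makes acylcarnitine at the outer membrane and is the control point of the pathway, had log2 changes of -0.47 at 2 months (adjusted p = 0.0472), -1.22 in tumors (adjusted p = 0.0264, lost without control 1 or control 3) and -1.12 in periT (adjusted p = 0.0107, lost without periT 2). It overlapped at 2 months, with 303, 411 and 314 CPM in mutants and 331 to 570 CPM in controls, and its call there was lost when any of 6 single libraries was left out. Cpt2, which regenerates the acyl-CoA inside, fell by 0.47, 0.97 and 0.73 on the log2 scale in 2-month mutants, tumors and periT; its tumor call was lost without any 1 control, without tumor 2 or without the tumors of mutant 1, and its periT call without control 3, periT 2 or periT 3.

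The acyl-CoA dehydrogenases differed among themselves in size. Acadl, the long-chain enzyme, was at 110.0, 77.3 and 75.4 CPM in 2-month mutants, against 254 to 286 CPM with a median of 271 CPM in controls. It was at 100.1, 100, 86.1 and 76.5 CPM in tumors and 73.5, 59.2 and 45.2 CPM in periT, against 321, 293 and 324 CPM in controls. The groups did not overlap, and the log2 changes were -1.62 (SE 0.133, adjusted p = 3.48e-06), -1.86 (SE 0.192, adjusted p = 0.00144) in tumors and -2.40 (SE 0.197, adjusted p = 7.1e-05) in periT.

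Acad11, a dehydrogenase reported in peroxisomes and mitochondria, was at 154, 156 and 124 CPM in 2-month mutants, against 320.4 to 503 CPM with a median of 442 CPM in controls. It was at 153, 125, 88.4 and 125 CPM in tumors and 131, 107 and 74.7 CPM in periT, against 530.2, 341 and 588 CPM in controls. Its mutant libraries were again all below the controls, with log2 changes of -1.59, -2.07 and -2.23 in 2-month mutants, tumors and periT. The enzymes for other chain lengths moved less: at 2 months Acadvl (very long), Acadm (medium) and Acads (short) fell by 0.39, 0.55 and 0.58 on the log2 scale. At 9 months Acadm fell by 1.18 in tumors and 1.12 in periT; Acadvl had -0.70 in tumors (adjusted p = 0.0459) and -0.46 in periT (adjusted p = 0.0508), and Acads -0.74 in tumors (adjusted p = 0.0595) and -0.67 in periT (adjusted p = 0.0077). The tumor calls of Acadm and Acadvl were lost without control 3, and that of Acadvl without any 1 animal of either group.

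Electrons from these dehydrogenases pass to the electron transfer flavoprotein and on to its ubiquinone oxidoreductase. All 3 genes of this relay were lower in each comparison with controls. Etfdh, the oxidoreductase, was at 220.2, 196 and 161 CPM in 2-month mutants, against 313 to 413 CPM with a median of 383 CPM in controls. At 9 months it was at 114, 113, 87.0 and 82.9 CPM in tumors and 133, 112 and 76.4 CPM in periT, against 367, 237 and 393 CPM in controls. Even control 2, the lowest, lay above every tumor and periT library, and the log2 changes were -0.94, -1.83 (SE 0.261, adjusted p = 0.00394) and -1.64 (SE 0.259, adjusted p = 0.00187) in 2-month mutants, tumors and periT.

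Etfb, the beta subunit, was at 36.8, 30.6 and 24.6 CPM in 2-month mutants, against 57.4 to 69.4 CPM with a median of 61.0 CPM in controls. Tumors had 38.7, 26.7, 22.4 and 30.6 CPM and periT 32.9, 35.2 and 43.9 CPM, against 67.2, 131 and 86.8 CPM in controls. The groups did not overlap although 9-month controls spread widely, with log2 changes of -1.01, -1.76 and -1.36 in the 3 comparisons in the same order. The transcript of Gm45233 is identical over 70.1% of the length of Etfb, and the count table lists no gene under the name Gm45233. How reads that fit both were assigned is not known, so the level of Etfb is uncertain. Etfa, the alpha subunit, fell by 0.81, 1.33 and 1.04 on the log2 scale.

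The 5 genes of the middle and end of the mitochondrial spiral were lower in all 3 comparisons, with median log2 changes of -0.66, -1.32 and -0.88 in 2-month mutants, tumors and periT. Hadha and Hadhb encode the 2 subunits of the trifunctional protein, which hydrates, oxidises and cleaves long chains. Hadha (chr5:30118304-30155162, minus strand) and Hadhb (chr5:30155248-30184593, plus strand, GRCm38) lie head to head, and 85 bases separate their annotated gene ends, so that their promoter windows share 228 of 300 bases. That window is shown because 1 short stretch serves as the upstream region of both subunits; it is the RefSeq sequence (GRCm38.p6) of chr5:30155003-30155302, plus strand, with the 85 intervening bases in capitals.
Hadhb: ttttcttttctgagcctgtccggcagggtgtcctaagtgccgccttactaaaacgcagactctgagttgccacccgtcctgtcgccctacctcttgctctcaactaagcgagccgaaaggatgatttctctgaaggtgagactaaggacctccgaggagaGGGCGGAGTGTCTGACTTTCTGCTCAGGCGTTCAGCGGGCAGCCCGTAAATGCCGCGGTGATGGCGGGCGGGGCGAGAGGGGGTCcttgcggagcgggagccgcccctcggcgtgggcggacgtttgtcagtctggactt

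The 2 subunits fell by 0.66 (Hadha) and 0.48 (Hadhb) at 2 months, by 0.96 and 0.74 in tumors and by 0.88 and 0.83 in periT, on the log2 scale. The tumor calls of both were lost without control 1, control 3, tumor 2 or the tumors of mutant 1, and the periT call of Hadha without control 3. The ratio of Hadha to Hadhb in TPM was 11.4 to 12.7 in 2-month mutants and 12.7 to 14.8 in controls, and 10.2 to 12.6 in tumors and 11.3 to 13.8 in periT, with 10.9 to 14.4 in controls. These ratios overlapped between periT and controls and between tumors and controls. The level of Hadhb is uncertain, as the transcript of Gm13910 is 99.8% identical over 69.7% of its length.

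Acaa2, the mitochondrial thiolase that ends each round, was at 628, 608 and 495 CPM in 2-month mutants, against 1010 to 1105 CPM with a median of 1051 CPM in controls. It was at 531, 479, 434 and 316 CPM in tumors and 540.3, 604 and 526 CPM in periT, against 1204, 1244 and 1258 CPM in controls. All mutant libraries were far below the narrow control range, and the log2 changes were -0.86 (SE 0.102), -1.59 (SE 0.257) and -1.16 (SE 0.142) in 2-month mutants, tumors and periT. Hadh, the short-chain hydroxyacyl-CoA dehydrogenase, was at 235, 231 and 187 CPM in 2-month mutants, against 354 to 400.1 CPM with a median of 378 CPM in controls. Its levels at 9 months were 232, 236, 190.0 and 243 CPM in tumors and 289, 242 and 232 CPM in periT, against 569, 586 and 593 CPM in controls. Its log2 changes were close to those of Acaa2, at -0.79, -1.41 and -1.20. Echs1, the short-chain enoyl-CoA hydratase, fell by 0.55, 1.32 and 0.86 on the log2 scale.

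Enzymes that move or reduce double bonds of acyl chains, grouped here as auxiliary, were lower in all 3 comparisons too. Their median log2 changes were -1.38 in 2-month mutants, -2.28 in tumors and -2.11 in periT, farther from 0 than those of the preceding 5 genes, a difference that is described and not tested. Eci1, the mitochondrial enoyl-CoA isomerase, was at 45.4, 38.1 and 32.4 CPM in 2-month mutants, against 137 to 155 CPM with a median of 145 CPM in controls. It was at 43.3, 40.2, 29.8 and 46.3 CPM in tumors and 47.1, 40.6 and 43.6 CPM in periT, against 158, 198 and 207 CPM in controls. No library of a mutant came near a control, with log2 changes of -1.90 (SE 0.115, adjusted p = 3.41e-07), -2.28 (SE 0.235, adjusted p = 0.00143) and -2.11 (SE 0.159, adjusted p = 4.99e-05).

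Eci2, the isomerase found in peroxisomes and mitochondria, was at 57.7, 59.1 and 50.7 CPM in 2-month mutants, against 152 to 251 CPM with a median of 193 CPM in controls. It was at 43.6, 49.6, 41.9 and 39.5 CPM in tumors and 60.1, 41.2 and 35.4 CPM in periT, against 230.2, 213 and 236 CPM in controls. The pattern was that of Eci1, with log2 changes of -1.83, -2.43 and -2.32. Of the dienoyl-CoA reductases, mitochondrial Decr1 fell by 0.64 and peroxisomal Decr2 by 1.38 on the log2 scale at 2 months. At 9 months Decr1 fell by 1.57 in tumors and 1.37 in periT, and Decr2 by 2.59 and 2.23. Pecr, the peroxisomal trans-2-enoyl-CoA reductase, fell by 0.82 in 2-month mutants, 1.46 in tumors and 0.78 in periT.

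**Figure D2:**
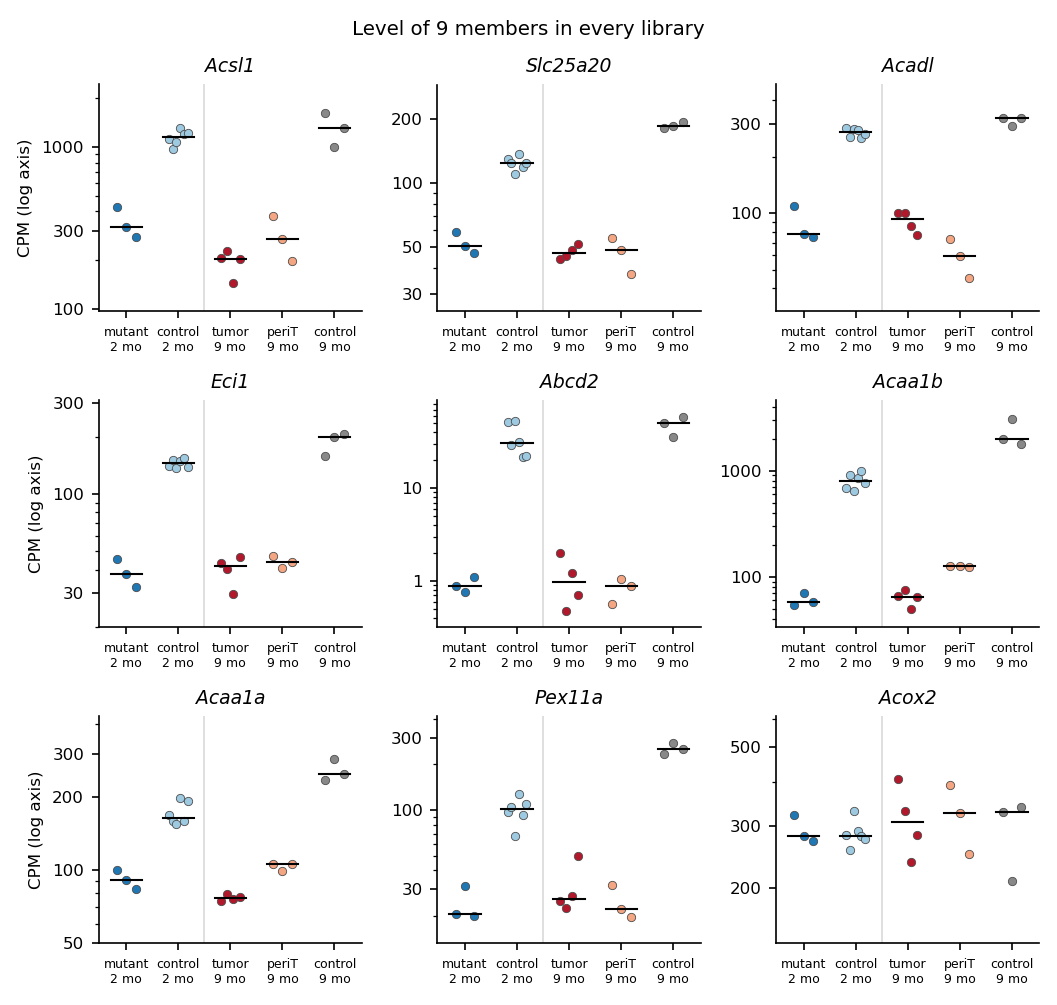
Level of 9 of the genes in every library, in CPM on a log axis; each point is a library and each bar the median of its group, with 2-month mutants, 2-month controls, tumors, periT and 9-month controls from left to right. Mutant, tumor and periT points lie below their controls for Acsl1, Slc25a20, Acadl, Eci1, Abcd2, Acaa1b, Acaa1a and Pex11a, and overlap them for Acox2.

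Import into peroxisomes held the largest change of all 34 genes. Abcd2 (chr15:91145871-91191799, minus strand) encodes an ABC transporter of the peroxisomal membrane for very long chain acyl-CoA. It was at 0.886, 0.757 and 1.11 CPM in 2-month mutants, from 15, 12 and 24 counts, against 21.7 to 52.4 CPM with a median of 30.4 CPM in controls, from 274 to 792 counts. At 9 months it was at 2.01, 0.476, 1.23 and 0.702 CPM in tumors and 0.571, 1.05 and 0.883 CPM in periT, against 49.7, 35.9 and 58.6 CPM in controls. All 10 libraries of mutants lay far below the lowest control. The level was 36.9-fold lower in 2-month mutants (log2 change -5.20, SE 0.427, adjusted p = 5.46e-06), 45.8-fold lower in tumors (-5.52, SE 0.31, adjusted p = 0.000339) and 57.1-fold lower in periT (-5.84, SE 0.282, adjusted p = 7.63e-06).

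Abcd3, which encodes the far more abundant transporter PMP70, changed less. It was at 400.2, 424 and 327 CPM in 2-month mutants, against 730.2 to 801 CPM with a median of 751 CPM in controls. It was at 363, 275, 258 and 233 CPM in tumors and 377, 292 and 230.2 CPM in periT, against 866, 584 and 958 CPM in controls. The groups did not overlap, with log2 changes of -0.98, -1.60 and -1.43 in 2-month mutants, tumors and periT. The gap between the 2 transporters in these changes was not tested as a difference.

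Within the peroxisomal spiral the thiolase genes Acaa1a (chr9:119339676-119350299, plus strand) and Acaa1b (chr9:119148023-119157093, minus strand) were both lower in all 3 comparisons, and Acaa1b had the largest change of the spiral. Acaa1b was at 54.4, 70.9 and 58.6 CPM in 2-month mutants, against 647 to 982 CPM with a median of 805 CPM in controls. It was at 65.7, 74.96, 50.3 and 64.5 CPM in tumors and 126, 127 and 123 CPM in periT, against 1988, 3041 and 1792 CPM in controls. Mutant libraries of either age were at less than the lowest control by a wide margin, and the level was 13.1-fold lower in 2-month mutants (log2 change -3.71, SE 0.185, adjusted p = 7.93e-08), 37.4-fold lower in tumors and 18.3-fold lower in periT (log2 change -4.19, SE 0.25, adjusted p = 1.87e-05).

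Acaa1a was at 100.3, 91.2 and 83.8 CPM in 2-month mutants, against 155 to 198 CPM with a median of 165 CPM in controls. It was at 74.6, 79.9, 76.1 and 77.1 CPM in tumors and 106, 98.8 and 106 CPM in periT, against 236, 287 and 248 CPM in controls. Its log2 changes of -0.90, -1.76 and -1.32 were smaller than those of Acaa1b. Counts of Acaa1b were 0.542 to 0.778 times those of Acaa1a in 2-month mutants, against 3.94 to 6.16 times in controls, and 0.662 to 0.938 times in tumors and 1.15 to 1.28 times in periT, against 7.22 to 10.6 times in controls. The division of reads between them is uncertain, since their transcripts are 98.7% identical over 1428 bases. Their summed level, which does not depend on that division, was 142 to 162 CPM in 2-month mutants, against 801 to 1140 CPM in controls, and 126 to 155 CPM in tumors and 225 to 232 CPM in periT, against 2040 to 3330 CPM in controls.

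The start regions of this pair are shown because their transcripts are nearly identical while their levels moved by different amounts. Both are RefSeq windows on GRCm38.p6, at chr9:119341044-119341343 on the plus strand for Acaa1a and chr9:119157044-119157343 on the minus strand for Acaa1b. The Acaa1a window lies inside the gene, whose annotation begins at 119339676, whereas the Acaa1b window spans its annotated start at 119157093. The capitals mark the longest run that the windows share, which is 8 bases.
Acaa1a: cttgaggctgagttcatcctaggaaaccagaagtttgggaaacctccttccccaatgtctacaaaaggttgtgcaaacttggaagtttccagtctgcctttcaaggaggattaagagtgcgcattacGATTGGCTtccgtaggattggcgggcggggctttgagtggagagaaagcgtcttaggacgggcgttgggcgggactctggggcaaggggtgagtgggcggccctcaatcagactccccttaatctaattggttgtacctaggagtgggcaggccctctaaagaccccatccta
Acaa1b: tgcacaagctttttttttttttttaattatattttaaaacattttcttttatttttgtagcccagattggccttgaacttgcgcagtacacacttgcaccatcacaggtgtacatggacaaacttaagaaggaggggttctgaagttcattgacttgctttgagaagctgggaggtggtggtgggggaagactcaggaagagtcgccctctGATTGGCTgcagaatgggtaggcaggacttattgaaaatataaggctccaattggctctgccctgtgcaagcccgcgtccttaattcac

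The 2 bifunctional proteins, which carry out hydration and the second oxidation in peroxisomes, differed at 2 months. Ehhadh, the L-bifunctional protein, was at 160, 137 and 156 CPM in 2-month mutants, against 339 to 426 CPM with a median of 374 CPM in controls. It was at 73.9, 91.0, 132 and 156 CPM in tumors and 164, 136 and 91.8 CPM in periT, against 503, 372 and 439 CPM in controls. The groups were apart, with log2 changes of -1.32 (SE 0.108, adjusted p = 3.28e-06), -1.84 and -1.75 in 2-month mutants, tumors and periT. Hsd17b4, the D-bifunctional protein for branched chains and bile acid intermediates, was at 466, 490 and 428 CPM in 2-month mutants, against 477 to 558 CPM with a median of 508 CPM in controls. It was at 313, 320, 317 and 381 CPM in tumors and 427, 347 and 267 CPM in periT, against 710, 621 and 731 CPM in controls. It thus overlapped its controls at 2 months (log2 change -0.16, adjusted p = 0.178) and lay below them at 9 months, with -1.04 (SE 0.214, adjusted p = 0.0137, lost without control 1 or control 3) in tumors and -0.99 (SE 0.194, adjusted p = 0.00539) in periT. Scp2 fell by 0.68, 1.74 and 1.21 on the log2 scale in the 3 comparisons, with its level uncertain through the near-identical Scp2-ps2. That copy had 2373 counts over all libraries, against 473196 of Scp2.

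Acox2 (chr14:8225511-8259353, minus strand), the oxidase for branched chains and bile acid intermediates, was the exception in all comparisons with controls. It was at 321, 280.1 and 271 CPM in 2-month mutants, against 256 to 332 CPM with a median of 282 CPM in controls. It was at 408, 331, 238 and 282 CPM in tumors and 392, 326 and 249 CPM in periT, against 328, 209 and 338 CPM in controls. The groups overlapped at both ages, and its log2 changes were 0.03 (SE 0.0986, adjusted p = 0.826), -0.00 (SE 0.271, adjusted p = 0.997) and 0.14 (SE 0.234, adjusted p = 0.681), with a sign that turned under several settings. As the other genes fell, its rank among the 34 in TPM was 7 in 2-month mutants and 18 in their controls.

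As the transgene encodes an AP-1 dimer, promoter windows of 300 bases, 250 before the start to 50 after it (RefSeq, GRCm38.p6), were searched on both strands for the AP-1 site TGANTCA. Windows were matched for 29 of the 34 genes. The site occurs in 7.81% of all 32851 windows and in 3 of the 33 windows of these genes, 2 of Acox2 and 1 of Acadvl, a share near that of all windows from which nothing is read. Only these 2 genes had matches, and 1 window of each is shown with the site in capitals. They lie at chr14:8258970-8259269 (minus strand) for Acox2 and chr11:70015379-70015678 (minus strand) for Acadvl. The other Acox2 window, chr14:8258790-8259089, overlaps the one shown and holds a further match outside the bases shown.
Acox2: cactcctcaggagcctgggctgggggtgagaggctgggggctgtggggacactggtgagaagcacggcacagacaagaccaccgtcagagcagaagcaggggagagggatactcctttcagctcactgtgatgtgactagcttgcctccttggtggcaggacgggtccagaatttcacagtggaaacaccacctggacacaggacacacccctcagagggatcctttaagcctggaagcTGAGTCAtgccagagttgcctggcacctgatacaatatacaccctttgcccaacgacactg
Acadvl: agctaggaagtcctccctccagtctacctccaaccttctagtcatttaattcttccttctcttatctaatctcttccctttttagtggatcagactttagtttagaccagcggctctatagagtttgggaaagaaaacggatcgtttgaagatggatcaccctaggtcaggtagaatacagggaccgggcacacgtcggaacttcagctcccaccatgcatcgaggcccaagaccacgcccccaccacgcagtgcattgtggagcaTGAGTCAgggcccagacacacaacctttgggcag

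The hexamer AGGTCA, which nuclear receptors bind, was found in 5 of the 29 genes (Cpt1a, Acadvl, Acadm, Echs1 and Scp2) and in 16.3% of all windows. A direct repeat of that hexamer with 1 base between the copies, the arrangement known for PPARα, was in 0 of the 29 and in 0.0396% of all windows. These matches describe letters within 300 bases and say nothing of binding there or elsewhere.

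Export and division of peroxisomes also had less mRNA in mutants. Pex11a (chr7:79735957-79743131, minus strand), a peroxin that elongates and divides peroxisomes, was at 20.7, 31.5 and 20.1 CPM in 2-month mutants, against 67.5 to 127 CPM with a median of 101 CPM in controls. It was at 25.1, 22.6, 27.0 and 50 CPM in tumors and 32.1, 22.4 and 19.8 CPM in periT, against 233, 276 and 253 CPM in controls. Every mutant library was below every control, with log2 changes of -2.05 (SE 0.219, adjusted p = 2.92e-05), -2.94 (SE 0.326, adjusted p = 0.00177) and -3.37 (SE 0.216, adjusted p = 2.5e-05) in 2-month mutants, tumors and periT. Crot, which makes carnitine esters of shortened chains for export, was at 455, 411 and 494 CPM in 2-month mutants, against 722 to 1066 CPM with a median of 767 CPM in controls. Its levels at 9 months were 180, 239, 427 and 287 CPM in tumors and 303, 309 and 231 CPM in periT, against 530, 421 and 629 CPM in controls. Tumor 2 reached the lowest control, and the log2 changes were -0.90 (adjusted p = 0.000828), -0.79 (adjusted p = 0.105) and -0.91 (adjusted p = 0.00817).

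The 2 ketone body genes were lower in all 3 comparisons. Acat1 (chr9:53580522-53610382, minus strand), the mitochondrial acetoacetyl-CoA thiolase, was at 135, 92.2 and 59.9 CPM in 2-month mutants, against 503 to 657 CPM with a median of 542 CPM in controls. It was at 211, 119, 58.8 and 178 CPM in tumors and 133, 82.9 and 81.0 CPM in periT, against 601, 555 and 674 CPM in controls. The groups were far apart although mutant libraries differed among themselves, and the level was 5.84-fold lower at 2 months (log2 change -2.55, SE 0.229, adjusted p = 7.66e-06), with log2 changes of -2.22 (SE 0.419, adjusted p = 0.0103) in tumors and -2.63 (SE 0.23, adjusted p = 9.68e-05) in periT. Bdh1 (chr16:31422280-31458901, plus strand), which interconverts acetoacetate and 3-hydroxybutyrate, was at 175, 181 and 138 CPM in 2-month mutants, against 249 to 371 CPM with a median of 342 CPM in controls. At 9 months it was at 186, 196, 182 and 114 CPM in tumors and 187, 194 and 149 CPM in periT, against 472, 417 and 545 CPM in controls. It too did not overlap, with log2 changes of -0.98, -1.58 and -1.44.

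Outside the 34 genes, Oxct1, which commits acetoacetate to use as fuel and is nearly silent in normal liver, was higher in all 3 comparisons. It was at 90.9, 150 and 225 CPM in 2-month mutants, against 4.01 to 5.78 CPM in controls, and at 198, 263, 101 and 173 CPM in tumors and 235, 312 and 194 CPM in periT, against 4.86, 5.43 and 6.04 CPM in controls. Its log2 changes were 5.02 (adjusted p = 9.86e-08), 4.93 (adjusted p = 0.00052) and 5.50 (adjusted p = 4.66e-06).

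**Figure D3:**
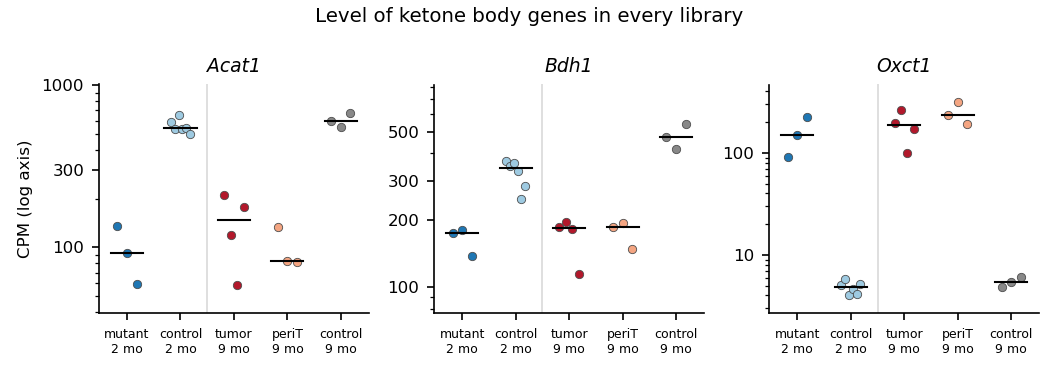
Level of the ketone body genes Acat1, Bdh1 and Oxct1 in every library, in CPM on a log axis. Bars are group medians, and groups run from left to right as 2-month mutants, 2-month controls, tumors, periT and 9-month controls. Oxct1 is the only panel in which mutant, tumor and periT points lie above controls.

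Set side by side, mitochondrial, peroxisomal and ketone body genes were all lower. At 2 months 18 of 18 mitochondrial, 10 of 12 peroxisomal and 2 of 2 ketone body genes passed as lower, with median log2 changes of -0.72, -0.94 and -1.76. In tumors 17, 10 and 2 passed, with medians of -1.37, -1.75 and -1.90, and in periT 17, 11 and 2 passed, with medians of -1.14, -1.37 and -2.04. The 2 genes reported in both organelles, Acad11 and Eci2, had medians of -1.71, -2.25 and -2.27 in 2-month mutants, tumors and periT. The mitochondrial changes at 2 months lay between -1.90 and -0.39 and the peroxisomal ones between -5.20 and 0.03, so the peroxisomal set held both the largest fall and the genes that did not pass.

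The compartments were also followed library by library: each library was set against the controls of its age, and the median over the genes of a compartment was taken. Mitochondrial medians were -0.98 to -0.61 in 2-month mutants and -0.10 to 0.06 in controls, and peroxisomal medians were -1.23 to -0.90 in mutants and -0.06 to 0.08 in controls, on the log2 scale. At 9 months mitochondrial medians were -1.55 to -1.20 in tumors and -1.28 to -0.93 in periT, with -0.11 to 0.08 in controls. Peroxisomal medians were -1.74 to -1.60 in tumors and -1.63 to -1.17 in periT, with -0.20 to 0.10 in controls. Genes of a compartment are not replicates, and the difference between compartments carries no test.

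**Figure D4:**
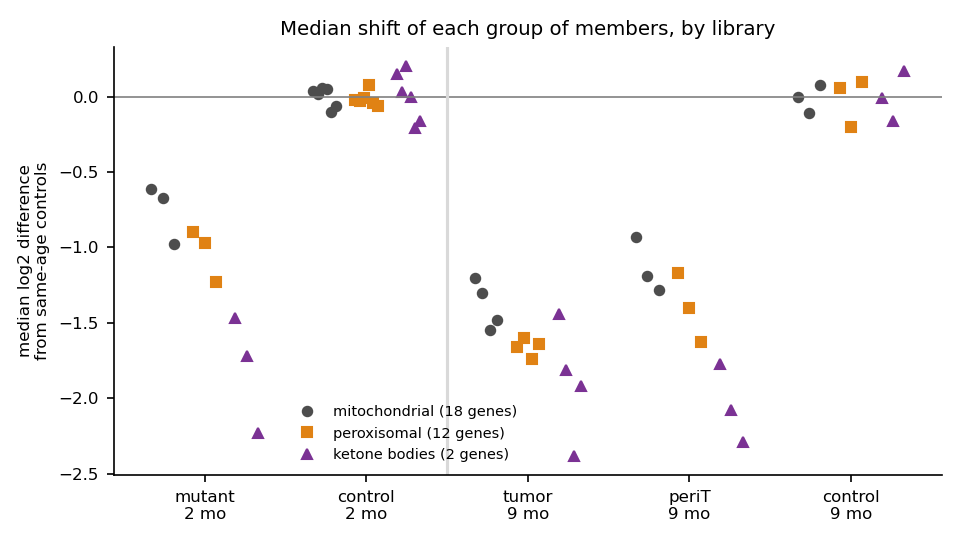
Median log2 difference from the controls of the same age over the mitochondrial, peroxisomal and ketone body genes, with a point for each library. Control points lie near 0, 2-month mutants at -0.98 to -0.61 for mitochondrial and -1.23 to -0.90 for peroxisomal genes, and for mitochondrial genes tumors at -1.55 to -1.20 and periT at -1.28 to -0.93.

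Tumors were then compared with the periT tissue of the same 3 animals, in a main test that did not use the pairing. Here 0 of the 34 genes were lower and 0 higher by the edgeR quasi-likelihood test after Benjamini-Hochberg adjustment, where 0% of the 14566 genes tested were lower and 0.0137% higher. At an unadjusted p under 0.05, 3 genes were lower (Pecr, Acaa1a and Acaa1b) and 1 was higher (Acadl); limma voom called 0 after adjustment and DESeq2 called 2 lower, Acaa1b and Pecr. The median log2 change was -0.15, against 0.0241 over all genes. Acaa1b had 65.7, 74.96, 50.3 and 64.5 CPM in tumors, against 126, 127 and 123 CPM in periT, which did not overlap (log2 change -1.03, SE 0.173, adjusted p = 0.213). Tumor libraries also lay wholly below periT for Echs1, Pecr and Acaa1a and wholly above it for Acadl (log2 change 0.55, SE 0.215, adjusted p = 0.475). With 3 animals a difference of this size did not pass, which does not show that tumors and periT were alike.

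Whether the effect of the transgene differed between periT at 9 months and whole liver at 2 months was tested as the difference of both log2 changes. The effect was more negative at 9 months for 4 of the 34 genes, Slc25a20, Decr1, Hsd17b4 and Pex11a, and less negative for 0, where 1.05% of the 14707 genes tested had a lower and 0.462% a higher effect. At an unadjusted p under 0.05 the counts were 11 and 0. The median difference was -0.43, against -0.0294 over all genes. This count was unsteady: it was 0 with the replicate number as a block, with 1 fit over all groups or with library size alone, and 0 without 2-month mutant 1, 2-month mutant 2, 9-month control 3 or periT 3.

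Among the 4, Pex11a had the largest difference, -1.31 (SE 0.294, adjusted p = 0.0358). Its level was 20.1 to 31.5 CPM in 2-month mutants and 19.8 to 32.1 CPM in periT, while controls stood at 67.5 to 127 CPM at 2 months and 233 to 276 CPM at 9 months, in separate runs. For Hsd17b4 the difference was -0.82 (SE 0.192, adjusted p = 0.0424), for Slc25a20 -0.74 (SE 0.176, adjusted p = 0.0459) and for Decr1 -0.72 (SE 0.149, adjusted p = 0.0216). Decr1 was at 166, 161 and 151 CPM in 2-month mutants, against 213 to 271 CPM with a median of 251 CPM in controls. It was at 125, 106, 72.8 and 103 CPM in tumors and 109, 122 and 101 CPM in periT, against 279, 289 and 286 CPM in controls.

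The order of the genes by change was similar at both ages, in samples that the 2 comparisons do not share. Across the 34 genes the log2 changes of 2-month mutants and periT had a Pearson correlation of 0.967 and a Spearman correlation of 0.918, where the 13556 genes tested in both had 0.883 and 0.816. These describe points that share libraries within each age, and genes are not independent replicates. In 32 of the 34 genes the change was more negative in periT than at 2 months, as in 54.9% of those 13556 genes and in 55.7% of the 2758 among them that were lower at 2 months.

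**Figure D5:**
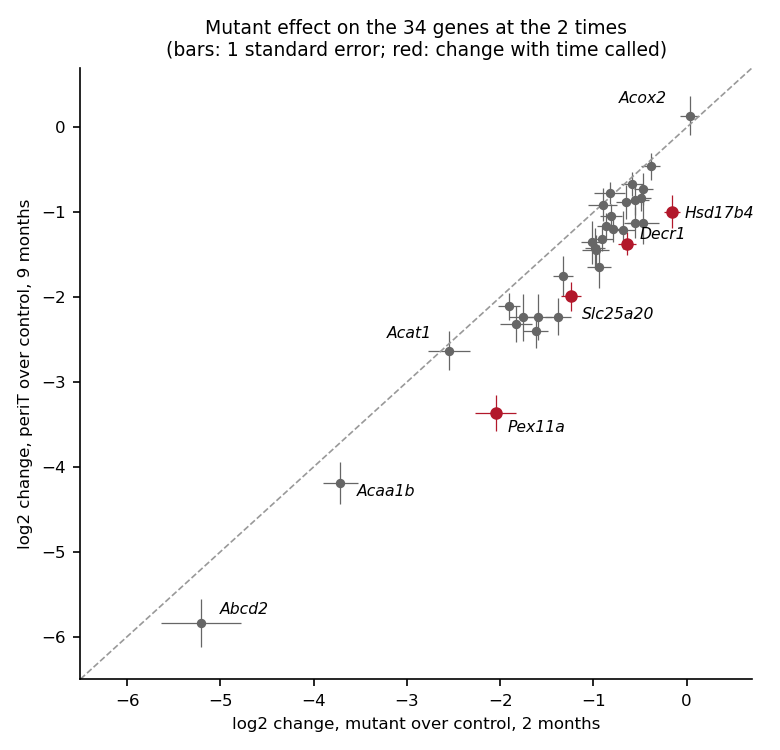
Log2 change of each of the 34 genes in 2-month mutants over controls (horizontal axis) and in periT over controls at 9 months (vertical axis), with bars of 1 SE; the dashed line marks equal change, and red points are Slc25a20, Decr1, Hsd17b4 and Pex11a. Most points lie below the line, and the order along it is led by Abcd2 and Acaa1b at the far end.

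The other genes of the pathway were more mixed than the 34. Of 32 further genes of fatty acid oxidation and ketogenesis that were tested, 14 were lower and 5 higher in 2-month mutants (median log2 change -0.31), 16 lower and 4 higher in tumors (-0.90), and 18 lower and 4 higher in periT (-0.68). Between tumors and periT 0 of the 32 passed by the edgeR test, with 3 lower and 1 higher at an unadjusted p under 0.05. Acad12, a dehydrogenase family member, was lower in all 3, with log2 changes of -2.59, -1.13 and -2.57 in 2-month mutants, tumors and periT, where the call in tumors was lost without any 1 of the 3 controls. In contrast, Acox3, an oxidase of branched chains, was at 354, 405 and 370 CPM in 2-month mutants, against 38.0 to 55.7 CPM in controls, and at 162, 244, 129 and 277 CPM in tumors and 360, 373 and 313 CPM in periT, against 45.6, 38.1 and 41.8 CPM in controls. Its log2 changes were 2.97 (adjusted p = 1.37e-08), 2.26 (adjusted p = 0.00297) and 3.06 (adjusted p = 7.85e-06).

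Of 15 regulators of these genes, 7 were lower and 1 higher in 2-month mutants, 4 and 1 in tumors and 5 and 2 in periT. Ppara, which encodes PPARα, fell by 0.81 (adjusted p = 0.0318), 0.98 (adjusted p = 0.0156) and 0.66 (adjusted p = 0.00442) on the log2 scale in 2-month mutants, tumors and periT. Its call at 2 months was lost without any 1 mutant or control 4, that in tumors without control 1 or control 3, and all 3 calls under scaling by library size alone. Ppargc1a, its coactivator, had log2 changes of -1.25 in 2-month mutants (adjusted p = 0.00407), -0.85 in tumors (adjusted p = 0.28) and -1.60 in periT (adjusted p = 0.00217). Sirt3, a mitochondrial deacetylase that acts on several of these enzymes, fell by 1.23, 1.56 and 1.37. Pparg, which is low in normal hepatocytes, fell by 1.76 in 2-month mutants and 2.53 in periT, and had a log2 change of -2.45 in tumors (adjusted p = 0.0376), a call lost without any 1 control, without tumor 2 and without the tumors of mutant 1.

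The machinery of both organelles outside fatty acid oxidation moved less. Of 16 peroxisome genes, 15 of assembly and division and the matrix enzyme catalase, 8 were lower and 1 higher in 2-month mutants (median log2 change -0.30), 8 and 0 in tumors (-0.75) and 12 and 0 in periT (-0.66). Pex7, the receptor that imports Acaa1 thiolase among other proteins, fell by 0.82, 0.99 and 1.05 in 2-month mutants, tumors and periT. Of 27 genes of the mitochondrial matrix and import, 15 were lower and 2 higher in 2-month mutants (-0.32), 10 and 0 in tumors (-0.51) and 15 and 1 in periT (-0.55). Immt, which shapes the cristae, fell by 0.70 in 2-month mutants and 0.94 in periT, and had a log2 change of -0.62 in tumors (adjusted p = 0.0471), a call lost without any 1 animal and with library size alone, where it was -0.16. Dlat, a subunit of pyruvate dehydrogenase, fell by 0.71, 1.38 and 1.25 in 2-month mutants, tumors and periT. In each comparison with controls the median of the 34 genes was lower than the medians of these 2 lists, a description without a test. Between tumors and periT 0 regulators, assembly or matrix genes passed by the edgeR test, with 1, 2 and 0 lower and 0 higher at an unadjusted p under 0.05. In the change with time 0 passed as well, with 1, 7 and 4 lower and 0 higher unadjusted.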

How the data were processed

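Poly(A)-selected, strand-specific RNA libraries were sequenced, per the labels' protocols. The deposited table lists 55421 genes with whole-number counts that showed no normalisation; 24684 of the genes were at 0 in all libraries. The submitters' processing notes name STAR 2.6.1a, RSEM, bedtools 2.27.1, DESeq2 1.22.2 and build GRCm38. The role of each is not given in the sources used here, so the deposited counts may be RSEM expected counts rounded to whole numbers. Coordinates and exon lengths come from GENCODE M21, in which 54673 gene identifiers were found with the same version and 55240 without regard to version. Depth is the total count per library, and it limits the precision of low values such as Abcd2 in mutants.

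Only the groups compared entered a fit, made in edgeR 4.0.16 (R 4.3.3) with its expression filter, TMM scaling and robust dispersions. P-values from the quasi-likelihood test were Benjamini-Hochberg adjusted over all genes tested, with a threshold of 0.05. Group was the only term of these fits, so tumors and periT were not paired by animal in them. SE is that of the fitted log2 change. CPM were scaled by TMM over all 19 libraries, and TPM used union exon lengths. The 2 tumors of mutant 1 were summed, giving 15 animals. The script was tested on simulated data. None of the 30 pairs of libraries within a group had identical counts. Transcripts of other genes that align to a member at 95% identity or more over at least 200 bases were taken as near-identical copies.

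The 34 genes, the other gene lists (further fatty acid oxidation and ketogenesis genes, their regulators, peroxisome assembly with catalase, mitochondrial matrix and import, and markers of hepatocytes, macrophages, endothelium, bile duct, stellate cells and fibroblasts, lymphocytes and adipocytes, and immediate early genes) and the tests were chosen with earlier results of these data known. Any of the 34 may be named. Given for every library are the 2 with the largest change per step at 2 months and those that passed in the change with time, to which Acox2, Hsd17b4 and a few others were added after their values were seen. Outside the 34, Ppara and Ppargc1a and up to 3 genes with the smallest adjusted p per list and comparison may be named, and some genes that this rule names are not reported here.

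Tumor and periT libraries with the same number come from the same animal, and their deviations from the group means correlated at 0.0334 to 0.307, against -0.246 to 0.041 for different animals. For the other groups the labels give numbers only, and whether these pair animals is not known. Alternatives were DESeq2 1.42.0, limma voom (limma 3.58.1), RLE factors, library size alone, no filter, 1 fit over all groups, the replicate number as a block, the tumors as separate libraries, leaving out all 9-month animals numbered 1, and leaving out each library.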

Additional observations from a re-analysis of the deposited data

Results flagged for a closer look

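Single libraries stood apart from the rest of their group in 4 of 68 checks of the 34 genes, where chance flags about 1 in 20. Only 2-month controls and tumors were checked, so 2-month mutants, periT and 9-month controls, with 3 libraries each, have no result here. Acad11 was at 320.4 CPM in control 5 at 2 months, below the other 5 controls, with a gap to the nearest of 0.631 of the group's range. Tumor 2 had 124.9 CPM of Echs1, away from the other 3 tumors, with a gap of 0.943 of the range. Tumor 3 had 381.4 CPM of Hsd17b4 (gap 0.892) and 50 CPM of Pex11a (gap 0.838), both above the other tumors. The group of 4 tumors includes 2 from the same animal.

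Effects that differed between the ages, by the test of the difference itself, were those of Slc25a20 (-0.74), Decr1 (-0.72), Hsd17b4 (-0.82) and Pex11a (-1.31), as log2 change in periT over controls minus log2 change in 2-month mutants over controls. Age and sequencing run cannot be told apart in this difference.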

How the results depend on the processing

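Of the 34 genes, 21 were lower in 2-month mutants, tumors and periT under all settings tried. With 1 library left out the count of lower genes was 31 to 32 at 2 months, 24 to 31 in tumors and 30 to 33 in periT; in tumors it was 24 without control 3 and 25 without control 1, and 22 without all 9-month animals numbered 1. Scaling by library size alone shifted the median of all genes by 0.286, 0.475 and 0.425 on the log2 scale at 2 months, in tumors and in periT, and by 0.121 in the change with time. The counts of all genes called higher and lower were then 5445 and 1562 at 2 months (3067 and 2816 with TMM), 4664 and 818 in tumors (1971 and 1622), 5706 and 1178 in periT (2599 and 2410), and 92 and 87 in the change with time (68 and 155). Under it 27, 26 and 28 of the 34 were lower, and 1, Acox2, was higher at 2 months (0.30, adjusted p = 0.0136). Between tumors and periT, DESeq2 called 2 lower and 1 fit over all groups 1, Acaa1b. The change with time gave 4 lower genes, 2 with RLE factors, 1 without a filter, 0 with library size alone and 0 with 1 fit over all groups; leaving out a library gave 0 to 6, with 1 without 2-month control 1, 2-month control 5 or periT 2, 6 without periT 1 and 2 without 2-month mutant 3, 2-month control 2, 3, 4 or 6, or 9-month control 1 or 2.

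With the replicate number as a block, 29, 29 and 32 of the 34 were lower at 2 months, in tumors and in periT, 0 between tumors and periT and 0 in the change with time. Over all genes the block gave 1753 higher and 1537 lower at 2 months, 1505 and 1222 in tumors, 2669 and 2430 in periT, 1 and 0 between tumors and periT, and 16 and 38 in the change with time. Same-numbered libraries correlated at -0.222 to 0.239 at 2 months, -0.0316 to 0.113 between tumors and controls and -0.0193 to 0.309 between periT and controls. Differently numbered libraries correlated at -0.272 to 0.32, -0.0724 to 0.0932 and -0.252 to 0.28 in the same order. As these ranges overlap, the check cannot decide whether the numbers pair those animals.

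In the comparisons with controls, signs turned only for Hsd17b4 and Acox2, in comparisons where their log2 change in the main test was near 0. Hsd17b4 at 2 months was 0.11 with library size alone. With 1 library left out, the log2 change of Acox2 was -0.0531 to 0.0791 at 2 months (negative without mutant 1 or control 2), -0.197 to 0.157 in tumors (positive without control 1, control 3, tumor 2 or tumor 3) and -0.0524 to 0.314 in periT (negative without control 2 or periT 1). In tumors Acox2 was 0.465 with library size alone, 0.01195 with 1 fit over all groups, 0.00674 with the replicate block and 0.07998 with the tumors as separate libraries. Without the 5 genes that share at least 50% of their length with a near-identical or overlapping gene, 27, 26 and 27 of 29 were lower, with median log2 changes of -0.90, -1.58 and -1.37.

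With 3 mutants, a control that stood apart at 9 months, and tissue RNA only, these counts rest on few animals and do not separate cell types.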

Other observations

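Of 11 endothelial markers, 1 was higher and 0 lower in 2-month mutants, 4 were higher and 1 lower in tumors, and 1 was higher and 4 lower in periT (edgeR quasi-likelihood test, adjusted p under 0.05). They summed to 276 to 359 CPM in 2-month mutants, against 247 to 434 CPM in controls, and to 353 to 439 CPM in tumors and 298 to 327 CPM in periT, against 320 to 375 CPM in controls. Of the bile duct markers tested, 2 of 6 were higher in 2-month mutants, 2 of 6 in tumors and 1 of 6 in periT. Lymphocyte markers had 0 of 7, 0 of 7 and 0 of 8 called by that test in 2-month mutants, tumors and periT, with 0, 0 and 1 higher and 0 lower at an unadjusted p under 0.05. Of the adipocyte markers, 1 of 1 tested was higher in 2-month mutants, 1 of 2 was higher and 1 lower in tumors, and 1 of 2 was lower in periT. Fabp4 was the gene higher in 2-month mutants and tumors, and Cfd the gene lower in tumors and periT. Their summed level was 42.6 to 68.1 CPM in tumors and 12.2 to 22.9 CPM in periT, against 11.1 to 31.0 CPM in controls; Adipoq, Lep, Plin1 and Retn had no count in any 2-month mutant. Immediate early genes had 2 of 10 higher and 1 lower in 2-month mutants and 0 of 11 called in tumors or periT by the edgeR test, also at an unadjusted p under 0.05.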
